A study of Mus musculus with 4 samples.

Results

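The Hox genes encode homeodomain transcription factors that lie in 4 clusters of the mouse genome, Hoxa on chromosome 6, Hoxb on chromosome 11, Hoxc on chromosome 15 and Hoxd on chromosome 2. Members of different clusters that share a number are paralogues, and the number gives the position in the cluster, from 1 (anterior) to 13 (posterior). All rows of the gene table whose name is that of 1 Hox gene of these clusters were taken, which gave 35 rows for 34 genes out of 29286 rows, because Hoxa10 had 2 rows. The other 5 Hox genes in the table (Hoxa5, Hoxa6, Hoxb9, Hoxd3 and Hoxd4) shared 3 rows with neighbouring genes and are given separately, so that 39 Hox genes were covered in all.

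The RNA came from an immortalized line of mouse podocytes, the epithelial cells that wrap the glomerular capillaries of the kidney. According to the study's methods, the line carries a thermosensitive T antigen for growth. After 12 days of differentiation the cells received a mimic at 50 nM, either of miR-93 (2 libraries) or nontargeting (NT, 2 libraries), and were harvested 48 hours later. The series aimed to find targets of miR-93, a microRNA of the miR-17 family. The values are the authors' FPKM (fragments scaled to transcript length and to library size), pooled over the 2 libraries of each group. No value per library was used, so no spread between replicates, no standard error and no test could be given, library depth is unknown, and every difference below has no replicate check. The table does not name its pair of conditions. They were identified from Rps6ka4 (Msk2), which the study shows under the group names. In the table the first condition, read as the miR-93 mimic, had 9.68 FPKM for this gene, and the second, read as the NT mimic, had 14.7 FPKM. Every direction below rests on that reading and would turn with it.

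Vertebrate Hox genes are switched on in the order of their position during development and give cells a lasting address along the body axis. Polycomb proteins keep the unused part of each cluster silent through methylation of histone H3, and Trithorax proteins keep the used part active. Hox proteins bind DNA with cofactors of the Pbx and Meis families. In the mouse, the paralogues of group 11 are required for the outgrowth of the ureteric bud that starts the kidney. The clusters also hold the genes of miR-196 and miR-10, whose known targets include Hox mRNAs.

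The question for the Hox genes is whether they carry a match to the miR-93 seed (bases 2 to 8 of the microRNA) and whether their mRNA differed between the mimics. The mature sequence of miR-93 is given with those of the cluster microRNAs miR-196a and miR-10a to show that the seeds, in capitals, are different. The sequences are from RefSeq on build GRCm38.p6.
mmu-miR-93-5p: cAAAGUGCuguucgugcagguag
mmu-miR-196a-5p: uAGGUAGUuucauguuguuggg
mmu-miR-10a-5p: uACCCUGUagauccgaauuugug

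Of 39 Hox genes, all with an annotated 3′ untranslated region of at least 30 bases (GENCODE M21, longest per gene), 5 held a miR-93 match of 7 or 8 bases. The matches searched on the sense strand were GCACTTT (7mer-m8), CACTTTA (7mer-A1) and their union GCACTTTA (8mer). None of the 39 held the 8mer. The sites of 4 of them are shown with their flanks, the match in capitals, with positions counted from the first base after the stop codon. Hoxa7 and Hoxb4 were expressed, whereas Hoxa13 and Hoxb13 were close to 0.
Hoxa7 (chromosome 6, bases 199 to 205): attcaatcaccCACTTTAgctcccagggaa
Hoxb4 (chromosome 11, bases 121 to 127): taccctaccctCACTTTAtctataaggaat
Hoxa13 (chromosome 6, bases 776 to 782): tacgaagaattCACTTTAtgccccttctcc
Hoxb13 (chromosome 11, bases 741 to 747): cagttacttggGCACTTTcttaaactctgc

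The podocytes expressed a wide and uneven set of Hox genes, and the set was the same under both mimics. Of the 35 rows, 22 (21 genes) averaged 1 FPKM or more over both groups, which is the floor used here. Another 9 rows lay under 0.1 FPKM in both groups, 3 of them at 0 (Hoxb1, Hoxd1 and Hoxd12), and the last 4 (Hoxa2, Hoxa4, Hoxc5 and Hoxd10) lay in between. The highest member was Hoxc10, a gene of the lumbar and hindlimb level, at 81.6 FPKM with the miR-93 mimic and 78.9 FPKM with the NT mimic. Its mean level was above that of 92.2% of the 10855 rows with 1 gene name over the floor.

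**Figure D1:**
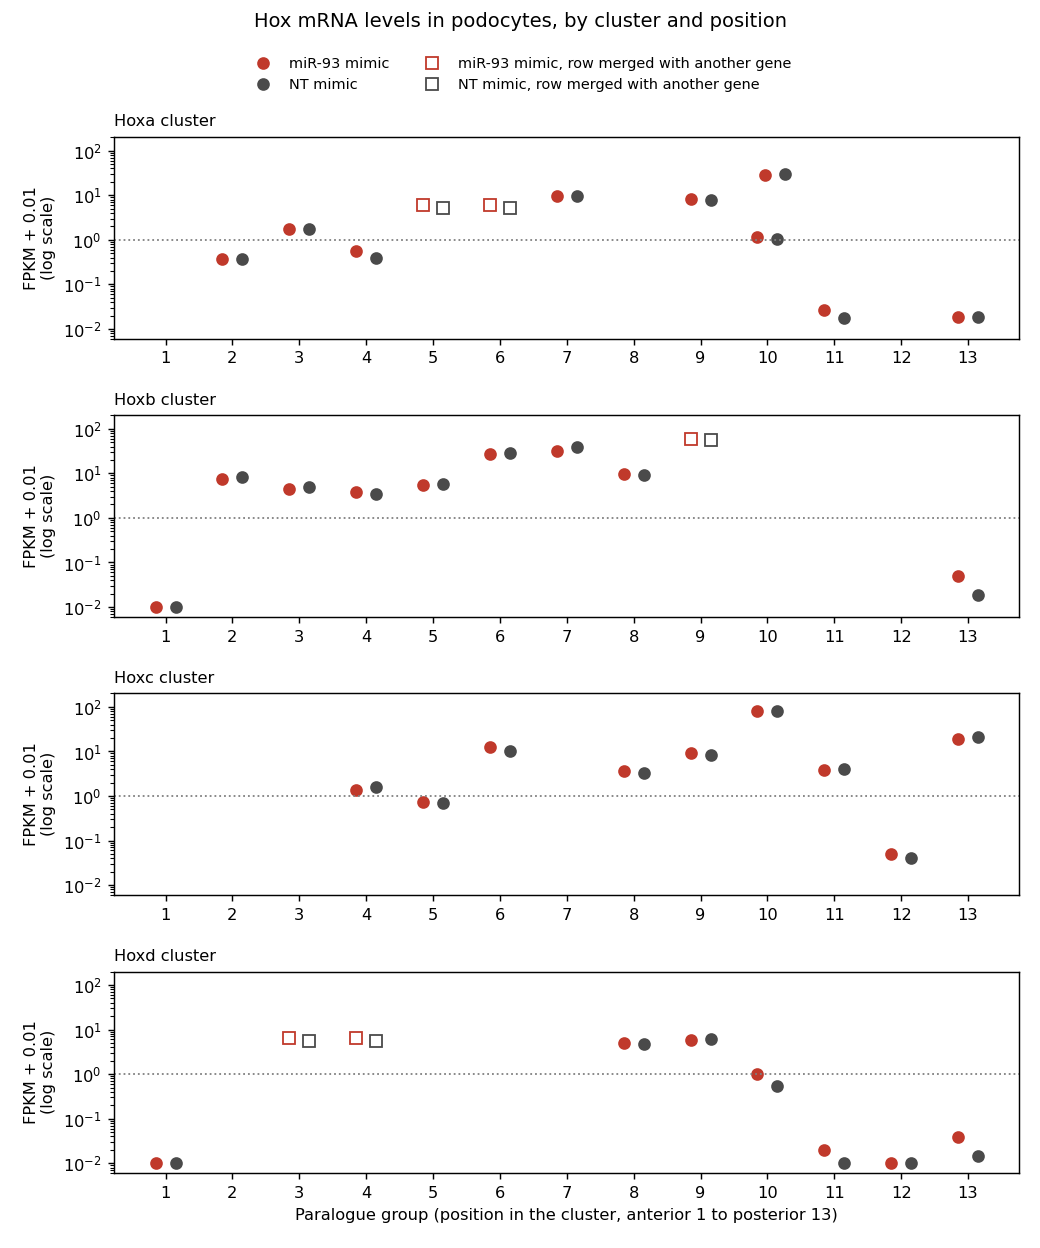
FPKM of Hox rows (plus 0.01, log scale) against paralogue group, 1 panel per cluster, with the pooled value for the miR-93 mimic in red and for the NT mimic in grey. Filled points are rows of 1 gene, open squares are rows merged with another gene, and the dotted line is an FPKM of 1. The 2 groups lie close together for the rows above the line, with Hoxc10 highest at 81.6 and 78.9 FPKM, and farther apart for some rows below it, such as Hoxd10 at 0.973 and 0.542 FPKM.

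Differences between the mimics were small across the expressed Hox rows. None of the 22 rows differed by 1.5-fold, whereas 416 of the 10855 named rows (3.83%) did, 1.35% being higher and 2.49% lower with the miR-93 mimic. None of the 22 passed a lower limit of 0.32 on the log2 scale in either direction, which 14.9% of the named rows did. With so small a share of all rows past 1.5-fold, the first count is close to the background, and neither count was tested. The log2 ratios, computed on FPKM plus 0.1 as miR-93 mimic over NT mimic, ran from −0.24 (Hoxb7) to 0.31 (Hoxc6). Their quartiles were −0.05 and 0.10, against −0.20 and 0.03 for all named rows, whose SD is carried by a few extreme rows and is not compared. Because the culture was sequenced in bulk, fewer cells with a given mRNA and less of it per cell cannot be told apart.

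The median log2 ratio was 0.01 for the 22 Hox rows and −0.09 for all named rows. Of the Hox rows 11 lay above 0 and 11 below, whereas 30.5% of the named rows lay above 0. Set against the median of all named rows, 17 of the 22 Hox rows (77.3%) lay above it and 5 below. The direction given to a small ratio therefore depends on where no change is set, and after centring on that median the Hox median was 0.10. With rows split by level, the median was 0.04 for 16 Hox rows of 1 to 10 FPKM, against −0.07 for 5162 named rows, and −0.04 for 6 Hox rows of 10 to 100 FPKM, against −0.10 for 5037 named rows. In these bands the percentage of named rows past 1.5-fold was 5.21 and 2.60.

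**Figure D2:**
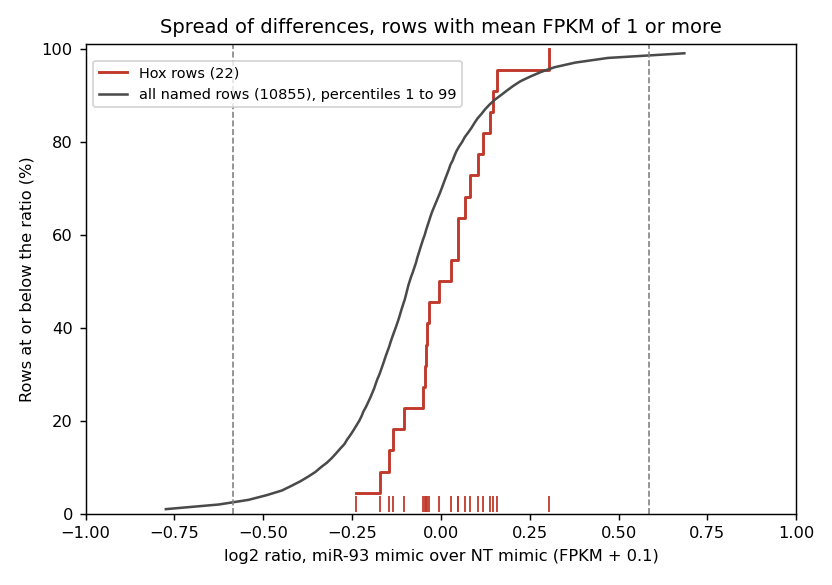
Cumulative share of rows (per cent) against the log2 ratio of miR-93 mimic over NT mimic (FPKM plus 0.1), for 22 Hox rows in red with a tick per row and for 10855 named rows in grey, drawn between percentiles 1 and 99. Dashed lines mark a fold of 1.5. The Hox rows span −0.24 to 0.31 and their median of 0.01 lies to the right of the −0.09 of all named rows.

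The Hoxa cluster was expressed up to group 10 and close to 0 beyond it. Hoxa10 (XLOC_021447, chromosome 6, 52173119 to 52190856 on mouse build mm9), which patterns the uterus in the mouse, had 29.0 FPKM with the miR-93 mimic and 29.8 FPKM with the NT mimic (log2 −0.04). A second row under the same name and locus (XLOC_020794) had 1.15 and 1.05 FPKM with the miR-93 and NT mimics (log2 0.12), and how reads were divided between the pair is uncertain. The neighbouring Hoxa11 (chromosome 6, 52192104 to 52199768) stood at 0.0164 FPKM with the miR-93 mimic and 0.00715 FPKM with the NT mimic, and Hoxa13 at 0.00847 and 0.00869 FPKM. The step from expressed to near 0 thus fell between Hoxa10 and Hoxa11 under both mimics.

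The other expressed Hoxa members were spread over a range of levels. Hoxa7 had 9.75 FPKM with the miR-93 mimic and 9.43 FPKM with the NT mimic (log2 0.05). Hoxa9, a regulator of blood stem cells, had 8.38 FPKM with the miR-93 mimic and 7.78 FPKM with the NT mimic (log2 0.11). Both values were slightly higher with the miR-93 mimic. Hoxa3, a gene of the pharyngeal arches, had 1.71 FPKM with the miR-93 mimic and 1.77 FPKM with the NT mimic (log2 −0.04). Hoxa2 was lower in level, at 0.360 FPKM with the miR-93 mimic and 0.356 FPKM with the NT mimic. Hoxa4 had 0.543 FPKM with the miR-93 mimic and 0.386 FPKM with the NT mimic, a log2 ratio of 0.40 under the floor.

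In rows of 1 gene, the Hoxb cluster was expressed from group 2 to group 8, with both ends near 0. Hoxb9 shared a row with another gene and is given below. Hoxb7 (chromosome 11, 96147959 to 96151477), whose promoter is widely used to mark the ureteric bud and collecting duct in mice, had 32.3 FPKM with the miR-93 mimic and 38.1 FPKM with the NT mimic. This was the lowest ratio among the expressed Hox rows (log2 −0.24, 1.18-fold lower). Hoxb6, its neighbour, had 27.4 FPKM with the miR-93 mimic and 28.1 FPKM with the NT mimic (log2 −0.03), so that the difference at Hoxb7 was not shared by the next gene of similar level. Hoxb8 had 9.46 and 9.27 FPKM with the miR-93 and NT mimics (log2 0.03). Hoxb5 had 5.61 and 5.63 FPKM (log2 0.00).

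The anterior Hoxb genes pattern the hindbrain. Hoxb2 had 7.37 FPKM with the miR-93 mimic and 8.09 FPKM with the NT mimic (log2 −0.13), and Hoxb3 had 4.398 and 4.875 FPKM (log2 −0.15). Hoxb4, which promotes the expansion of blood stem cells, had 3.86 FPKM with the miR-93 mimic and 3.49 FPKM with the NT mimic (log2 0.14). These neighbours thus had ratios of opposite sign. Hoxb1 was listed at 0 in both groups, and Hoxb13 at 0.0391 FPKM with the miR-93 mimic and 0.00865 FPKM with the NT mimic, levels at which a ratio carries little information.

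The Hoxc cluster held the highest and the most posterior expression. Besides Hoxc10, Hoxc13 (chromosome 15, 102751561 to 102759245), known for its role in hair and nail, had 19.4 FPKM with the miR-93 mimic and 20.8 FPKM with the NT mimic (log2 −0.10). It was the only member of groups 12 and 13 above an FPKM of 0.1, the other 5 rows of these groups lying at or below 0.0411 FPKM. Hoxc11 (chromosome 15, 102784956 to 102787132) had 3.82 FPKM with the miR-93 mimic and 3.94 FPKM with the NT mimic (log2 −0.04), and Hoxc12, between them, had 0.0411 and 0.0299 FPKM. Of the kidney paralogues of group 11, Hoxc11 was therefore the one expressed here, with Hoxa11 near 0 and Hoxd11 at 0.01005 FPKM with the miR-93 mimic and listed at 0 with the NT mimic.

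The largest ratio among the expressed Hox rows was at Hoxc6 (chromosome 15, 102839992 to 102842312), a gene of the thoracic level. Hoxc6 had 12.6 FPKM with the miR-93 mimic and 10.2 FPKM with the NT mimic (log2 0.31, 1.24-fold higher). Centred on the median of all named rows its log2 ratio was 0.39, the only expressed Hox row then past 0.32, as were 1408 of the 10855 named rows. Hoxc8 and Hoxc9, the latter a gene of thoracic motor neurons, were next in order along the cluster and had smaller ratios in the same direction. Hoxc8 had 3.69 FPKM with the miR-93 mimic and 3.30 FPKM with the NT mimic (log2 0.16). Hoxc9 had 9.06 FPKM with the miR-93 mimic and 8.18 FPKM with the NT mimic (log2 0.15), and Hoxc10 had a log2 ratio of 0.05. At the anterior end, Hoxc5 had 0.731 and 0.681 FPKM with the miR-93 and NT mimics, and Hoxc4 had 1.37 and 1.55 FPKM (log2 −0.17).

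The Hoxd cluster had the fewest expressed members. Hoxd9 (chromosome 2, 74535819 to 74538265) had 5.87 FPKM with the miR-93 mimic and 6.09 FPKM with the NT mimic (log2 −0.05), and Hoxd8 had 5.02 and 4.79 FPKM (log2 0.07). Hoxd10 (chromosome 2, 74530004 to 74533159), a gene of hindlimb motor neurons, had 0.973 FPKM with the miR-93 mimic and 0.542 FPKM with the NT mimic, a ratio of 1.80. On the log2 scale with a pseudocount of 0.1 its ratio was 0.74, and on that scale it was the only Hox row past 1.5-fold at any level. It lay under the floor, and with a pseudocount of 1 its log2 ratio was 0.36, short of 1.5-fold. Without a floor, 7.03% of the 19059 named rows above 0 were past 1.5-fold. Hoxd13, a gene of the digits, had 0.0282 FPKM with the miR-93 mimic and 0.00448 FPKM with the NT mimic. Without a pseudocount this was a ratio of 6.30, but it rests on levels near 0.

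**Figure D3:**
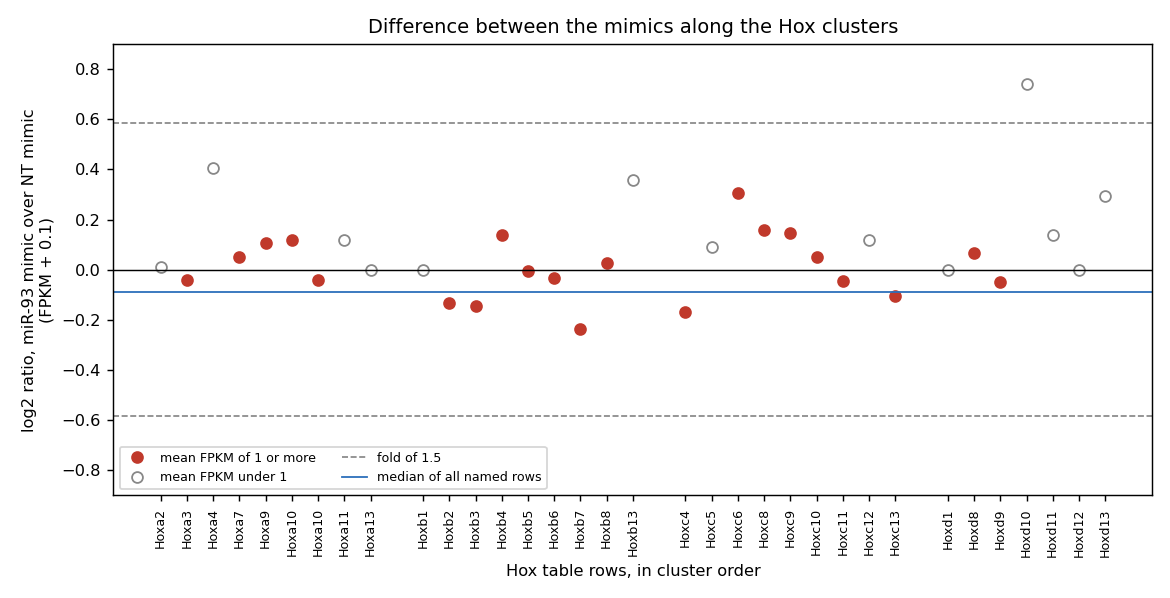
Log2 ratio of miR-93 mimic over NT mimic (FPKM plus 0.1) of Hox rows in cluster order, filled for a mean FPKM of at least 1 and open below it, with dashed lines at a fold of 1.5 and a blue line at the median of all named rows (−0.09). All filled points lie between −0.24 and 0.31, and Hoxd10 at 0.74 is the only point past a dashed line.

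By cluster, the median log2 ratio of expressed rows was 0.06 for Hoxa (6 rows), −0.03 for Hoxb (7 rows), 0.05 for Hoxc (7 rows) and 0.01 for Hoxd (2 rows). By position, it was −0.09 for groups 1 to 3 (4 rows), 0.04 for groups 4 to 8 (10 rows) and 0.00 for groups 9 to 13 (8 rows). After centring, the Hoxb median turned to 0.05 and that of groups 1 to 3 to 0.00. Across the 22 rows, Spearman's rho of the log2 ratio was 0.13 with paralogue group and −0.11 with mean FPKM. These describe genes of the same pooled libraries, which are not replicates. FPKM were also summed over the rows of 1 Hox gene in a cluster, with the merged rows left out. With the miR-93 and NT mimics the sums were 90.4 and 97.5 for Hoxb, 132 and 128 for Hoxc, and 11.9 and 11.4 for Hoxd.

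Rows that merged a Hox gene with other genes lay within the range of the single rows. The row of Hoxb9 and Gm53 had 59.0 FPKM with the miR-93 mimic and 56.3 FPKM with the NT mimic (log2 0.07), the second highest level of the clusters. The row of Hoxa5 and Hoxa6 had 5.95 and 5.27 FPKM (log2 0.17), and that of Hoxd3, Hoxd4 and Mir10b had 6.45 and 5.41 FPKM (log2 0.25), again with the miR-93 and NT mimics. None of the 3 reached 1.5-fold, and the share of each gene in its row is unknown.

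The clusters also held rows other than those of single Hox genes. The 4 spans between the outermost members held 29 other rows, of which 5 were over the floor, the 3 merged rows among them. The other 2 were LOC100504068, next to Hoxa2, with 9.68 FPKM with the miR-93 mimic and 9.25 FPKM with the NT mimic (log2 0.06), and LOC100504154, within the locus that holds Hoxa3 to Hoxa6, with 2.89 and 2.86 FPKM (log2 0.01). A further 11 rows carried no gene name and had at most 0.636 FPKM with the miR-93 mimic and 0.830 FPKM with the NT mimic. Of these, 2 were past 1.5-fold, where 7.03% of named rows above 0 were without a floor, and at such low levels no direction is read from them. XLOC_004973, between the Hoxb9 and Hoxb8 loci, had 0.289 and 0.547 FPKM with the miR-93 and NT mimics, and XLOC_004975, in the Hoxb4 locus, had 0.0814 and 0.220 FPKM. The kit is known in general as unstranded, so reads of antisense transcripts and of the genes they overlap cannot be told apart. The rows of Mir196b, Mir196a-1, Mir196a-2, Mir10a and Mir615 were listed at 0 in both groups. According to the study's methods the libraries were made from poly-A RNA, so these rows do not measure the mature microRNAs.

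The expressed Hox genes with a miR-93 site shown above were not among the lower rows. A site of 7 or 8 bases was present in 3 of 21 expressed Hox genes (14.3%), and Hoxa7 and Hoxb4 among them had log2 ratios of 0.05 and 0.14. The median was −0.02 for the 14 expressed Hox genes without any match of 6 to 8 bases. Among 10030 expressed genes with a 3′ untranslated region, 22.5% held a 7- or 8-base site, with a median log2 ratio of −0.13, and genes without any match had −0.08. Genes with an 8mer, which no Hox gene held, had −0.26. The 2 lowest expressed Hox rows, Hoxb7 and Hoxc4, held no miR-93 match. With 3 genes and no replicate spread, no statement about the response of Hox genes to miR-93 sites can be made beyond these values.

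Sites for the cluster microRNA miR-196 were more common in the same genes. The seed match (ACTACCT or CTACCTA) was present in 6 of 21 expressed Hox genes (28.6%), Hoxa7, Hoxa9, Hoxb6, Hoxb7 and Hoxc8 among them, against 11.5% of the 10030 genes. Their log2 ratios ran from −0.24 to 0.16 with a median of 0.06. The match for miR-10 (ACAGGGT or CAGGGTA) was present in 4 of the 21, Hoxa3, Hoxa7 and Hoxb3 among them (19.0%, against 19.6% of the 10030 genes), with a median log2 ratio of 0.00. These matches are a description of the letters and no measure of binding.

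Genes that work with Hox proteins were mostly close to 0 in ratio as well. Of 9 listed cofactors, 6 were over the floor and none was past 1.5-fold, with a median log2 ratio of 0.05. Pbx2, a DNA-binding partner of Hox proteins, had 12.9 FPKM with the miR-93 mimic and 10.7 FPKM with the NT mimic (log2 0.26), and Pbx3, which held a miR-93 8mer, had 7.19 and 8.06 FPKM (log2 −0.16). The 9 listed ParaHox and other homeobox regulators (Cdx1, Cdx2, Cdx4, Gsx1, Gsx2, Pdx1, Evx1, Evx2 and Gbx2) were all under 0.1 FPKM in both groups, Evx1 and Evx2 beside the Hoxa and Hoxd clusters being at 0.

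Among 19 Polycomb and Trithorax genes over the floor, 1 was past 1.5-fold, near the background of 3.83% of all named rows, and the median log2 ratio was −0.01. Ezh1, a methyltransferase for histone H3 of Polycomb repressive complex 2, had 10.2 FPKM with the miR-93 mimic and 15.8 FPKM with the NT mimic (log2 −0.62). Its 3′ untranslated region held 3 matches of 7 or 8 bases to the miR-93 seed, of which the 8mer is shown because Ezh1 was the only listed gene over the floor that was past 1.5-fold.
Ezh1 (chromosome 11, bases 923 to 930): tagagaacaaaGCACTTTAactctctttta
The paralogue Ezh2 had 3.08 FPKM with the miR-93 mimic and 3.001 FPKM with the NT mimic (log2 0.04). Eed and Suz12, the other core subunits, had log2 ratios of 0.10 and −0.10, and the H3K4 methyltransferase gene Mll1 had −0.01. Of 14 genes over the floor on the list of genes that flank the clusters, none was past 1.5-fold, with a median of −0.05. The lowest was Skap2, beyond the Hoxa cluster, at 35.4 FPKM with the miR-93 mimic and 48.8 FPKM with the NT mimic (log2 −0.46), which is lower than any Hox row.

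**Figure D4:**
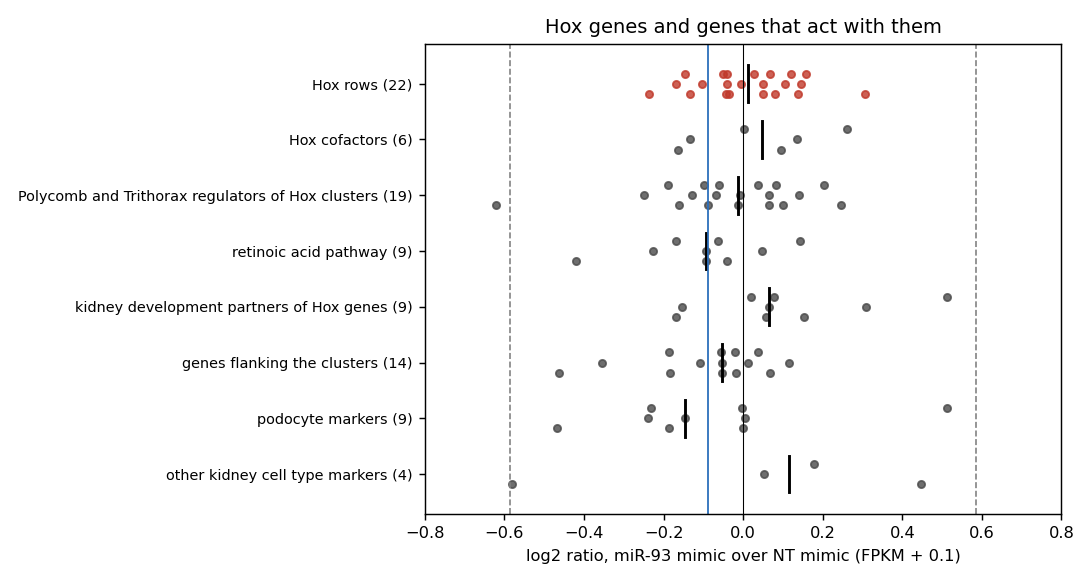
Log2 ratio of miR-93 mimic over NT mimic (FPKM plus 0.1) of each row or gene with a mean FPKM of at least 1, for the 22 Hox rows (red) and each gene list (grey), with the number of points in brackets, a black bar at the median, dashed lines at a fold of 1.5 and a blue line at the median of all named rows. Ezh1 at −0.62 is the only point past a dashed line.

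Markers gave a mixed picture of the labelled cell type, and their part in the Hox values was not tested. Of 15 podocyte markers 9 were over the floor and none of these was past 1.5-fold, with a median log2 ratio of −0.15. Podxl was the lowest of them, at 1.66 FPKM with the miR-93 mimic and 2.33 FPKM with the NT mimic (log2 −0.47), and Kirrel, Cd2ap and Nes had log2 ratios of −0.24, −0.23 and −0.19. Wt1 had the highest ratio of the 9, at 2.06 FPKM with the miR-93 mimic and 1.42 FPKM with the NT mimic (log2 0.51). The highest levels were similar in the groups, with Synpo at 158 FPKM in both groups and Actn4 at 219 FPKM with the miR-93 mimic and 218 FPKM with the NT mimic. Nphs1, which encodes the slit diaphragm protein nephrin, was near 0, at 0.164 FPKM with the miR-93 mimic and 0.0387 FPKM with the NT mimic, and Tcf21 was listed at 0 in both. Of 18 markers of other kidney cells 4 were over the floor. With the miR-93 and NT mimics, the tubular genes Aqp1 and Lrp2 had 385 and 340 FPKM, and 31.7 and 47.5 FPKM. The mesangial and stromal marker Pdgfrb had 20.0 and 19.2 FPKM, and the leukocyte marker Cd68 had 5.23 and 3.81 FPKM. The other listed tubular markers (Umod, Slc12a1, Slc12a3, Aqp2 and Slc34a1) were under the floor, so the list names no single other cell type.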

How the data were processed

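RNA was measured in 4 libraries, 2 per mimic, whose groups come from the sample titles. Per the labels, the authors used FastQC, Trimmomatic, TopHat2 2.0.4 on build mm9, Cufflinks and Cuffdiff (no other version is stated), and deposited 1 pooled FPKM per gene and group. The table's fold changes, test statistics, p-values and q-values, and the shorter sheets that hold such values, are the authors' own comparison and were not used. No column of per-library values was left out (0 columns). Precision per sample is unknown without depth or replicates.

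Log2 ratios were computed as miR-93 mimic over NT mimic on FPKM plus 0.1, with a floor of 1 on the mean FPKM. Calls are folds of 1.5, or log2 ratios of 0.32, in either direction over all rows with 1 gene name (python 3.11.15, pandas 2.3.3, numpy 2.4.6, scipy 1.17.1, matplotlib 3.10.9 for plots). Sites were searched in GENCODE M21 3′ untranslated regions (GRCm38), matched by symbol, with no coordinates set beside mm9. The ratio and site search were tested on simulated data. The rule named all members over the floor or past 1.5-fold, the member of each cluster nearest below the floor, and at most 4 genes per list past 1.5-fold and over the floor. Other members, unnamed rows and listed genes were named for their role or level after their values were seen. The members and lists were chosen with earlier results of these data known. Values of some items, 1 Hox gene among them, are counted in totals but not reported here. Alternatives were other pseudocounts, floors, folds, centring and annotations.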

Additional observations from a re-analysis of the deposited data

How the results depend on the processing

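The count of 0 expressed Hox rows past 1.5-fold was also found with centring. It was found too with the merged rows, added after seeing that their log2 ratios were at most 0.25, so this is no check. Nothing on stability came from a pseudocount of 1 or 0.01 FPKM, a floor of 5, a fold of 2 or rows of status OK only. None of these could give another count. Without a floor it was 1 (Hoxd10), and past a log2 limit of 0.32 on centred ratios, an alternative also added after seeing the data, it was 1 (Hoxc6), against 1408 of 10855 named rows. Centring, which moved the ratio of every row by 0.09, changed the sign of 6 of 23 rows (the 22 and Hoxd10). It gave medians of 0.10 for all Hox rows, 0.15 for Hoxa, 0.053 for Hoxb, 0.14 for Hoxc, 0.10 for Hoxd, 5.72e-05 for anterior, 0.13 for central and 0.092 for posterior groups. Without a floor, the Hoxd median was 0.14 and the posterior median 0.12. At a floor of 5 the Hoxd median was −0.0505, from 1 row. With 6-base matches counted, 7 of 21 expressed Hox genes held a miR-93 site, against 42.2% of all such genes. In the shortest annotated untranslated region it was 2 of 21, against 13.5%, and the printed sites of Hoxa7 and Hoxa13 were then absent. The pseudocount moved ratios by more than 0.05 for 3 of these 23 rows (at 1 FPKM) and 1 (at 0.01 FPKM). No paired analysis was possible because the deposited values are pooled per group, and for the same reason no replicate could be left out.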

Other observations

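Genes that act with Hox proteins in kidney development were also expressed. Of 12 listed partners, 9 were over the floor and none was past 1.5-fold, with a median log2 ratio of 0.07. Pax2 and Pax8, kidney lineage factors, had 71.4 and 46.2 FPKM with the miR-93 mimic, against 68.2 and 43.8 FPKM with the NT mimic. Eya1, which acts with Pax2 and the group 11 Hox proteins in the mouse kidney, had 2.33 FPKM with the miR-93 mimic and 2.60 FPKM with the NT mimic (log2 −0.15), and Six2, the marker of nephron progenitors, was listed at 0 in both. The highest ratio was that of Wt1, at 2.06 FPKM with the miR-93 mimic and 1.42 FPKM with the NT mimic (log2 0.51).

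Of 16 genes of the retinoic acid pathway, which sets Hox expression in the embryo, 9 were over the floor and none was past 1.5-fold, with a median log2 ratio of −0.09. Aldh1a1, which makes retinoic acid, was very high, at 1573 FPKM with the miR-93 mimic and 1677 FPKM with the NT mimic. Stra6, a retinol transporter, had the lowest ratio, with 2.00 FPKM with the miR-93 mimic and 2.71 FPKM with the NT mimic (log2 −0.42).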
